A study of Homo sapiens with 4 samples.

Results

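The 7 genes described here encode receptors of the epidermal growth factor (EGF) family and ligands that bind them. They are the receptor genes EGFR, ERBB2 and ERBB3 and the ligand genes AREG, EREG, HBEGF and TGFA. They were followed in chromatin immunoprecipitation sequencing (ChIP-seq) of H69, a human cell line known in the field as immortalised bile duct epithelium, although the labels give only its name and species. A peak was counted for a gene when its centre lay within 50 kb of the gene body. By this rule 51 of the 61551 peaks in 3 deposited lists belonged to these genes, namely 1 of 2471 for a YAP antibody from Santa Cruz, 6 of 10118 for the Avruch antibody against YAP, and 44 of 48962 for TEAD1. The cells carried no treatment or genetic change in the labels, and each antibody was used on 1 library. A library labelled with IgG as its antibody completes the set of 4 and was not analysed here. The peak lists hold no expression values, so the identity of the cells could not be checked against marker genes. Sequencing depth is unknown for these lists, so the lack of a peak does not show the lack of binding, and numbers of peaks do not rank the antibodies.

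EGF family receptors are membrane tyrosine kinases that pair with each other when a ligand binds and then signal through RAS, MAP kinases and PI3 kinase. Bile duct cells are known to divide in response to this pathway. YAP, the coactivator held back by the Hippo pathway, does not bind DNA itself and reaches it through TEAD factors such as TEAD1, which recognise GGAATG-like sequences. AREG is among the genes described in other epithelial cells as YAP targets.

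TEAD1 peaks were found at every one of the 7 genes, and YAP peaks at 4 of them. Of windows as long as those of the 7 genes, 61.7 to 83.5% held a TEAD1 peak, 22.7 to 45.4% an Avruch peak and 5.77 to 13.5% a Santa Cruz peak, depending on length. None of the 44 TEAD1 peaks overlapped a YAP peak, against 3.59% of all TEAD1 peaks, and so few peaks can give 0 at that share. None of the 7 YAP peaks overlapped a TEAD1 peak, against 19.4% of all Avruch and 30.9% of all Santa Cruz peaks, which 6 peaks and 1 peak cannot tell from 0. The 3 receptor genes held 30 of the TEAD1 peaks and 6 of the YAP peaks, and the 4 ligand genes held 14 and 1. The highest-scoring TEAD1 peaks lay upstream of EGFR, downstream of AREG and inside ERBB2, each above at least 97% of all TEAD1 peaks. No value has a replicate, so no difference was tested.

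Upstream sequences of these genes were searched for letters known from TEAD and AP-1 binding. They came from RefSeq (build GRCh38.p14), in which 6 of the 7 genes had an entry, with 8 starts among them, and ERBB3 had none. The 250 bases before each start were searched on both strands for GGAATG, for GGAATT and for the AP-1-like sequence TGANTCA, where N is any base. Overlapping matches were all counted, and the letters GGAATT and its reverse AATTCC can share bases. Matches of GGAATG or GGAATT occurred in 2 of the 8 member windows, and in 20.3% of all 35116 such windows. TGANTCA occurred in 2 of the 8 member windows, and in 6.57% of all. These matches are letters in a window and no measure of binding.

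EGFR is shown for both of its listed starts, the first because a TEAD1 peak lay near the start of the gene and the second because it held the most matches, and EREG because it held a GGAATG match and had the YAP peak with the highest score among the 7 genes. Sequences run 5′ to 3′ in the direction of the gene, and capitals mark the matches.
EGFR first start (GRCh38.p14, chr7:55018767-55019016, plus strand): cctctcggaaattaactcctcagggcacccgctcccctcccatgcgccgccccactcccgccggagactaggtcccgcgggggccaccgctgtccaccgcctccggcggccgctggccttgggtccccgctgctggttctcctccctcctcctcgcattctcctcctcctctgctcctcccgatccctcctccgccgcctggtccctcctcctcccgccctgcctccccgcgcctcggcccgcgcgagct
EGFR second start (GRCh38.p14, chr7:55109589-55109838, plus strand): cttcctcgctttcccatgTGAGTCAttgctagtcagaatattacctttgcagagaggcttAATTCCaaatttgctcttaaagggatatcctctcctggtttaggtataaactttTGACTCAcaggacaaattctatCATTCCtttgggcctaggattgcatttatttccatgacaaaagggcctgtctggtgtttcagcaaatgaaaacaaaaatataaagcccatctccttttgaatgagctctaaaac
EREG (GRCh38.p14, chr4:74364895-74365144, plus strand): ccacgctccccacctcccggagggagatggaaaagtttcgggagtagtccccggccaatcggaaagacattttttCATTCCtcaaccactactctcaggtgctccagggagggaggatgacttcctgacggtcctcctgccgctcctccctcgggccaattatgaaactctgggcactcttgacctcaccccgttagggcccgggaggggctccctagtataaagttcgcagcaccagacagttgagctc
The first EGFR window was 73.6% G and C and held no match. The second window was 38.8% G and C and held all 3 kinds of match, as did 51 of the 35116 windows (0.145%), a comparison made after the matches had been seen. Its TGANTCA matches began 232 and 136 bases before the start, its GGAATT match 190 bases and its GGAATG match 114 bases before it. The EREG match to GGAATG, read on the opposite strand as CATTCC, began 175 bases before the start. The single match of ERBB2 was to TGANTCA, and the windows of AREG, HBEGF and TGFA held none. Its middle base was T, whereas the EGFR matches to TGANTCA had G and C there. These windows are on another build than the peaks, and no coordinates were converted between them.

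Pooled over genes, there were 5.43 TEAD1 peaks per 100 kb of window at the receptors and 2.53 at the ligands, against 1.57 over the placed chromosomes as a whole. The order did not hold gene by gene, as the ligand gene HBEGF, with 6.14, was above EGFR, with 4.17, and ERBB2, with 4.26. Inside the gene bodies the pooled values were 3.57 at the receptors and 3.25 at the ligands, and ERBB3, with 9.76 over its window, raised the receptor value. Avruch peaks numbered 0.906 per 100 kb at the receptors and 0.181 at the ligands, against 0.315 over the placed chromosomes. These values rest on 5 peaks and 1 peak, and the 2 at ERBB3 are lost with 20 kb in place of 50 kb. The single Santa Cruz peak lay at a receptor gene. To read each gene's count, windows of the same length were laid end to end over the placed chromosomes, peak-free stretches included. The share of such windows that held at least as many peaks describes how common a count is, and neighbourhoods of genes need not be like the whole of a chromosome.

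**Figure D1:**
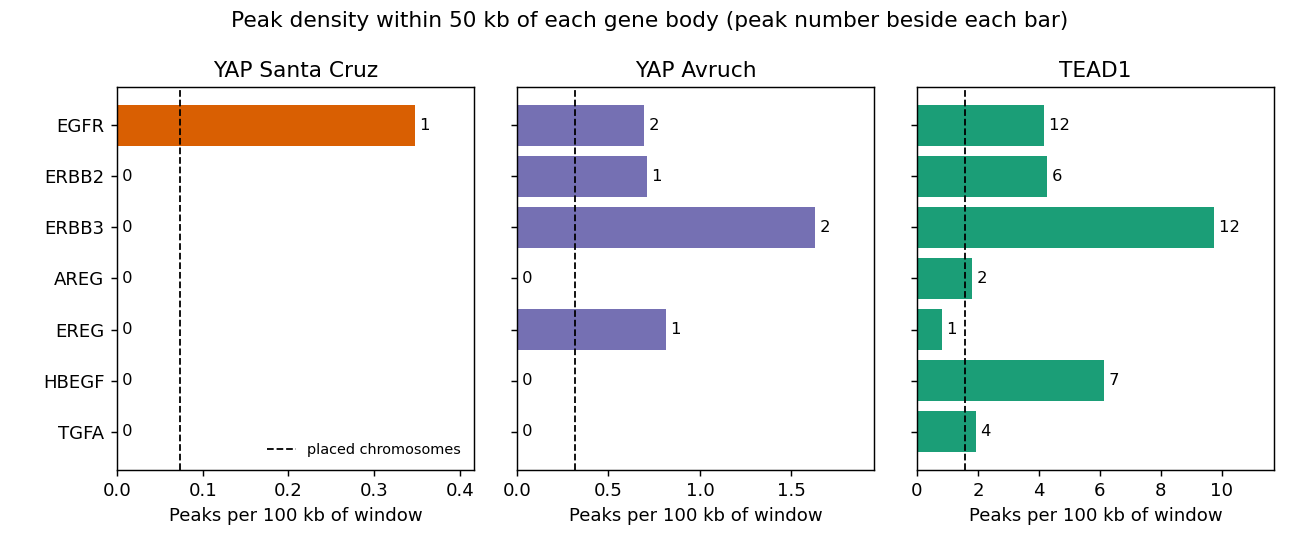
Peaks per 100 kb of window (horizontal axes) at each of the 7 genes for YAP Santa Cruz, YAP Avruch and TEAD1, with the number of peaks beside each bar and the density over the placed chromosomes as a dashed line. ERBB3 has the highest TEAD1 density, 9.76 per 100 kb, and EREG the lowest, 0.813.

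EGFR, the receptor of all 4 ligands here, was the gene with peaks in all 3 lists. Its 288 kb window held 12 TEAD1 peaks, a number reached by 8.78% of windows of that length. It held 2 Avruch peaks, reached by 18.5% of windows, and 1 Santa Cruz peak, reached by 13.5%. Of the TEAD1 peaks, 6 lay in the gene body, 3 upstream and 3 downstream, and their scores ranged from 56.56 to 491.67 with a median of 87.5. Scores are the authors' values without a stated unit, so they are used only to rank peaks within a list.

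The start of EGFR was flanked by peaks of TEAD1 and of the Santa Cruz antibody. Gene bodies are given to the nearest kb, so distances from a start are uncertain by about that much. A TEAD1 peak at chr7:55086431-55086724 (hg19, as for all peaks here) had its centre 0.423 kb before the start and a score of 102.87, above 79.1% of TEAD1 peaks. A second TEAD1 peak, chr7:55087282-55087592, was centred 0.436 kb after the start, with a score of 56.9. The Santa Cruz peak followed at chr7:55087852-55088000, 0.926 kb after the start, with a score of 54.91, above 25.3% of its list. It lay 260 bp from the second TEAD1 peak and did not overlap it, and their centres were 489 bp apart. This was the closest approach of a YAP peak to a TEAD1 peak at any of the 7 genes.

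The Avruch peaks of EGFR lay away from the start used here. They were centred 92.0 kb and 181.3 kb after it, inside the gene, at chr7:55178967-55179101 and chr7:55268279-55268416. In GRCh38.p14 the windows before the first and second listed starts of EGFR end at 55019016 and 55109838. If the spacing is alike in hg19 and the start used here is the first listed, the first Avruch peak lies near the second. Its exact distance from that start was not measured. The Avruch peaks of EGFR had scores of 55.47 and 52.12, above 15.2% and 6.27% of the Avruch list. The first lay 90.967 kb from the Santa Cruz peak, so the YAP lists had no peak in common at EGFR. With 1 Santa Cruz peak this says little, and it was not compared with the whole lists. The nearest TEAD1 peaks were 21.4 kb and 14.3 kb away.

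The TEAD1 peak with the highest score among all 7 genes lay 23.2 kb upstream of EGFR, at chr7:55063475-55064132. Its score of 491.67 exceeded 98.0% of TEAD1 peaks, and it was 658 bp wide. The next at EGFR, chr7:55200465-55201026, lay 113.7 kb inside the gene with a score of 253.48, above 94.7%. A pair of neighbours at 45.9 and 46.6 kb inside the gene scored 136.01 and 148.53. The strongest peaks at EGFR were thus away from the start used here. The outermost member, centred 49.9 kb before the start, scored 60.37, while a TEAD1 peak just outside the window, at 51.7 kb, scored 486.43 and was not counted.

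ERBB2, the receptor that needs no ligand of its own and pairs with the others, had 6 TEAD1 peaks, a count reached by 10.4% of windows of its length. Most were weak, as 5 of the 6 scored between 54.05 and 64.3, under the TEAD1 list median of 67.1. The exception was a peak 12.2 kb after the start given for the gene, chr17:37855935-37856410, with a score of 387.58, above 97.2% of TEAD1 peaks. The next in score, chr17:37887052-37887359, lay 2.21 kb beyond the end of the gene with 64.3. ERBB2 is known to have more than one transcription start, and the one used here is the most upstream. The peak may therefore lie near a further start, which was not tested. A run of 3 weak peaks lay 15.2 to 24.3 kb upstream, on the side of the neighbouring gene PGAP3.

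The single Avruch peak of ERBB2 was centred 1.35 kb before the start, at chr17:37842582-37842727, with a score of 58.08, above 26.5% of its list. This is the side of the neighbouring gene PGAP3, and whether the peak lies in or near that gene was not tested. The nearest TEAD1 peak to this Avruch peak was the strong one inside ERBB2, 13.2 kb away. No TEAD1 peak lay within 10 kb of this start, and the Santa Cruz list had no peak in the window. At least 1 Avruch peak was found in 27.6% of windows of this length.

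ERBB3, the receptor with a weakly active kinase that binds neuregulins and signals through its partners, had the densest TEAD1 peaks. Its window of 123 kb held 12, a number reached by 1.2% of windows of that length. Of the 12, 10 belonged to clusters, which are series of 3 or more peaks, each no more than 10 kb from the next. With 5 kb as the limit, 4 of the 12 did. The direction of the gene was not given in the tables used, so distances are from its end with the lower coordinate. A TEAD1 peak covered that end, chr12:56473766-56474176, with a score of 151.9, above 88.9% of TEAD1 peaks. A second, the widest of the 44 at 679 bp, lay 3.93 kb outside it at chr12:56469734-56470412, with the highest score at this gene, 199.56. Both belonged to a cluster of 5 peaks that spanned 15.1 kb and reached into the gene.

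A further cluster of 3 TEAD1 peaks spanned 14.4 kb on the lower-coordinate side of ERBB3, on the side of the neighbouring gene RPS26, with scores up to 123.25. On the other side, towards PA2G4, 2 of the 12 peaks belonged to a cluster of 6 whose other members lay outside the window. These are densities around several genes, and none of the peaks was tied to ERBB3 by more than distance. ERBB3 had 2 Avruch peaks, a count reached by 6% of windows of its length, both near the edges of its window. The first, chr12:56424261-56424370, was centred 49.7 kb outside the lower end and scored 55.24. The second was centred 45.7 kb beyond the higher end and scored 56.25. It covered chr12:56542618-56542736 and lay 2.67 kb from a TEAD1 peak of score 74.66, the closest approach of an Avruch peak to TEAD1 at the 7 genes. With 20 kb in place of 50 kb, ERBB3 had 7 TEAD1 peaks and no Avruch peak.

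**Figure D2:**
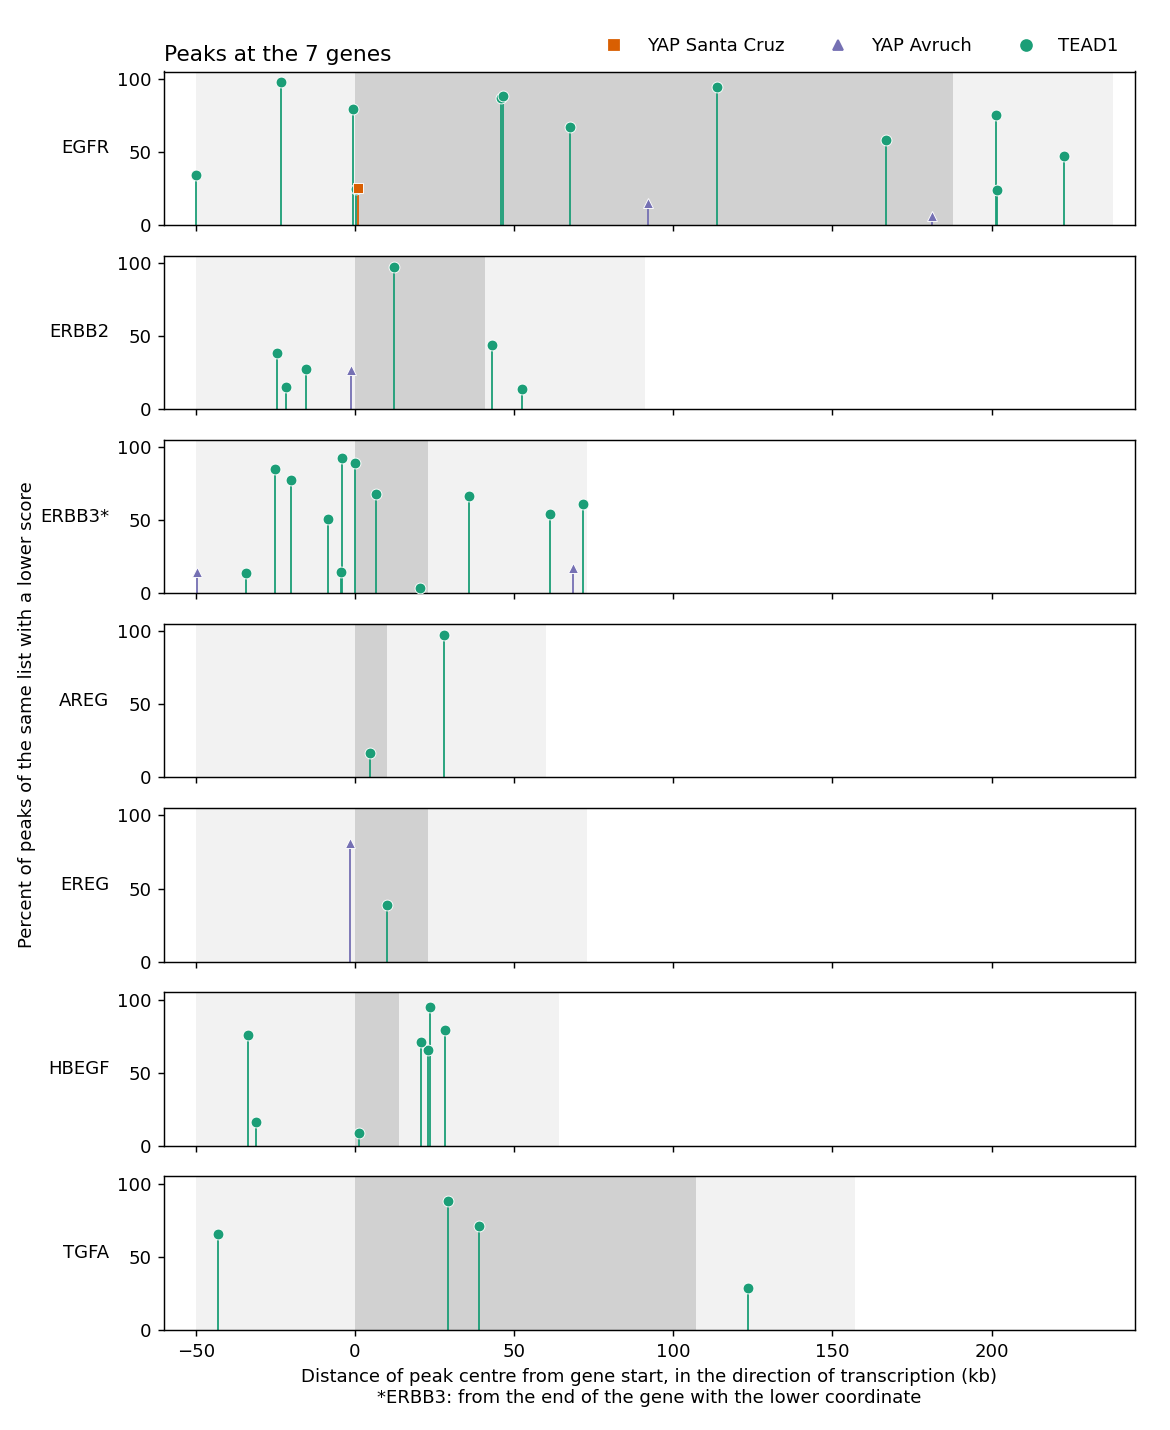
Peaks of the 3 lists at the 7 genes by distance of the peak centre from the gene start in kb (horizontal axis) and by the percent of peaks in the same list with a lower score (vertical axis), with the gene body in dark grey and 50 kb to each side in light grey. YAP symbols stand low at EGFR, ERBB2 and ERBB3, between 6.27% and 26.5%, and high at EREG, 81.3%, while TEAD1 symbols above 97% appear at EGFR, ERBB2 and AREG; at the EGFR start the Santa Cruz square covers a TEAD1 circle.

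AREG, which encodes amphiregulin, and EREG, which encodes epiregulin, are neighbours that both encode membrane-bound precursors released by proteases. AREG had no YAP peak of either antibody, as was the case for 94.2% of windows of its length with Santa Cruz and 77.3% with Avruch. It had 2 TEAD1 peaks, a count reached by 37.7% of windows. One lay 4.76 kb inside the gene, chr4:75315641-75315875, with a score of 54.87, above 16.7% of TEAD1 peaks. The other lay 18.0 kb beyond the end of the gene, chr4:75338798-75339261, with a score of 438.57, above 97.7%. It was the second highest of the 44. Its nearest YAP peak was 109.4 kb away, upstream of EREG. Build hg19 is known to carry a near-identical second copy of AREG, and how reads common to both copies were handled is not given in the sources used here, so the counts in the gene itself are uncertain.

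EREG had the YAP peak with the highest rank in its list. This Avruch peak was centred 1.66 kb before the start, at chr4:75229269-75229408, and its score of 80.06 exceeded 81.3% of Avruch peaks. At least 1 Avruch peak was found in 24.9% of windows of this length. The single TEAD1 peak of EREG lay 10.0 kb inside the gene, chr4:75240856-75241179, with a score of 61.88, above 38.5% of TEAD1 peaks, and 11.4 kb from the Avruch peak. At least 1 TEAD1 peak was found in 64.8% of windows. In the 57 kb between EREG and AREG none of the 3 lists had a peak.

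HBEGF, which encodes the heparin-binding ligand, had the most TEAD1 peaks of the ligands. There were 7, a count reached by 4.95% of windows of its length. It had no YAP peak, as was the case for 94% of windows with Santa Cruz and 76.8% with Avruch. Of these, 4 formed a cluster of 7.87 kb beyond the end of the gene, on the side of PFDN1. Its strongest member, chr5:139702298-139702768, lay 9.47 kb past the gene with a score of 258.59, above 94.9% of TEAD1 peaks, and the next, chr5:139697555-139697874, scored 102.96. The other members scored 85.88 and 79.15. The peak nearest the start, chr5:139724461-139724704, lay 1.42 kb inside the gene and was weak, with a score of 53.12, above 8.72%. The remaining peaks were 31.2 and 33.5 kb upstream, with scores of 54.8 and 94.64. The nearest YAP peak to any of the 7 was 233.7 kb away.

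TGFA, which encodes transforming growth factor alpha, had 4 TEAD1 peaks in its window of 207 kb, a count reached by 31.8% of windows. It had no YAP peak, as was the case for 89.9% of windows with Santa Cruz and 63.5% with Avruch. The strongest lay 29.4 kb inside the gene, chr2:70751352-70751929, with a score of 144.49, above 88.0% of TEAD1 peaks. A second lay 39.1 kb inside, chr2:70741811-70742089, with a score of 86.25. The other pair lay 43.0 kb upstream, with a score of 79.52, and 16.6 kb beyond the end, with a score of 58.01. No TEAD1 peak was nearer to the start of TGFA than 29.4 kb.

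**Figure D3:**
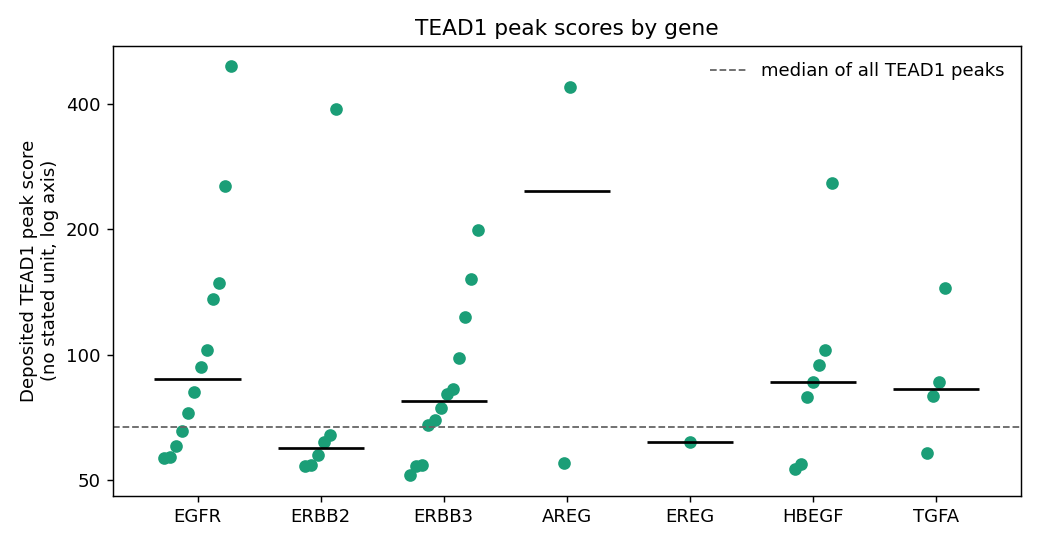
Deposited score of each TEAD1 peak (vertical log axis, no stated unit) at the 7 genes, with a bar at the median of each gene and a dashed line at the median of all TEAD1 peaks. Single high points at ERBB2 (387.58) and AREG (438.57) stand over otherwise low scores, while EGFR and ERBB3 have scores spread from under 60 upwards.

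Taken over the 7 genes, TEAD1 peaks were spread over the range of their list. Their median score was 79.3 and that of the whole list 67.1, and 27 of the 44 reached the list median. Of the 44, 6 (13.6%) scored above 90% of the list, against 10% of all TEAD1 peaks by construction. Their median width was 288.5 bp, against 274 bp for the list. The receptor genes had a median TEAD1 score of 73.6 and the ligand genes 82.7. Gene bodies held 14 TEAD1 peaks, or 3.45 per 100 kb, and the flanks 30, or 4.29 per 100 kb. Among the starts used here, 1 for each gene, TEAD1 peaks lay within 1 kb of that of EGFR and of the lower-coordinate end of ERBB3. Further starts, such as those of ERBB2, were not tested. The share of all TEAD1 peaks so near a gene start was not measured, so no preference for starts is shown.

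Clusters held 17 of the 44 TEAD1 peaks (38.6%, exact Clopper-Pearson 95% interval 24.4 to 54.5), against 29.3% of all TEAD1 peaks. They lay at ERBB3, with 10 peaks, HBEGF, with 4, and ERBB2, with 3, while EGFR, AREG, EREG and TGFA had none. The share over all TEAD1 peaks lies within the interval for the 44. With 5 kb, 8 of the 44 were clustered (18.2%), against 17.2% of all TEAD1 peaks, and ERBB2 had none. With 20 kb it was 22 (50%), against 46.8%. Neighbouring peaks are not independent, and such intervals cover counting error only.

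Most YAP peaks at these genes ranked low in their lists. Of the 7, 6 scored under the median of their own list, the EREG peak being the exception. By construction, about as many peaks of a list lie under its median as above it. So few as 7 peaks cannot tell these genes from an even split. The 6 Avruch scores ran from 52.12 to 80.06, with a median of 55.9, against 63.8 for the whole list. When peaks under the list median were left out, 1 Avruch peak and no Santa Cruz peak remained at the 7 genes. Of the 7 YAP peaks, 3 lay within 2 kb of the gene start used here, 1 for each gene. They were at EGFR (Santa Cruz), ERBB2 and EREG (both Avruch). The share of all YAP peaks so near a gene start was not measured, so 3 of 7 does not show a preference for starts. The count leaves out the second listed start of EGFR, near which the first Avruch peak of that gene may lie, and any further starts. No place had peaks of both antibodies, which a single Santa Cruz peak could show at only 1 place.

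Overlap between YAP and TEAD1 was 0 at these genes. For TEAD1, 0 of 44 peaks overlapped a YAP peak of either antibody, and the share over all TEAD1 peaks was 3.59%. The exact Clopper-Pearson 95% interval of the share at these genes runs from 0 to 8.04%, and the simpler limit of 3 counts in 44, which bounds it from above only, is 6.82%. The whole-list share thus lies within both, and a lower share at these genes was not detectable with 44 peaks. For Avruch, 0 of 6 peaks overlapped a TEAD1 peak (exact interval 0 to 45.9%), against 19.4% of all Avruch peaks. The single Santa Cruz peak did not, against 30.9% of all. When centres at most 500 bp apart counted as shared, 1 TEAD1 peak and the Santa Cruz peak, both at the start of EGFR, became shared.

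Distances between YAP and TEAD1 peaks were then compared with those over the whole lists. All 6 Avruch peaks had a TEAD1 peak between 2.67 and 21.4 kb away. Within 25 kb, a limit just beyond the longest of these, 70.2% of all Avruch peaks had one. The order was reversed at shorter limits, with 1 of 6 (16.7%) against 41.8% within 5 kb. Within 10 kb it was 2 of 6 (33.3%) against 52.5%. The median distance was 12.3 kb for the 6 and 8.56 kb for all Avruch peaks. At each limit the share over all Avruch peaks lies within the wide exact interval for the 6. Of the 44 TEAD1 peaks, 17 had a YAP peak within 25 kb (38.6%), against 28.5% of all TEAD1 peaks. Within 5 kb it was 3 of 44 (6.82%), against 11.6%. The 13 TEAD1 peaks at AREG, HBEGF and TGFA were between 86.2 and 295.4 kb from the nearest YAP peak. These genes had no YAP peak in their windows, so long distances follow in part from that choice. The median distance was 43.1 kb for the 44 TEAD1 peaks and 65.7 kb for all TEAD1 peaks. The distances at the other 4 genes rest on 7 YAP peaks in all, and neighbouring TEAD1 peaks share the same nearest YAP peak.

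**Figure D4:**
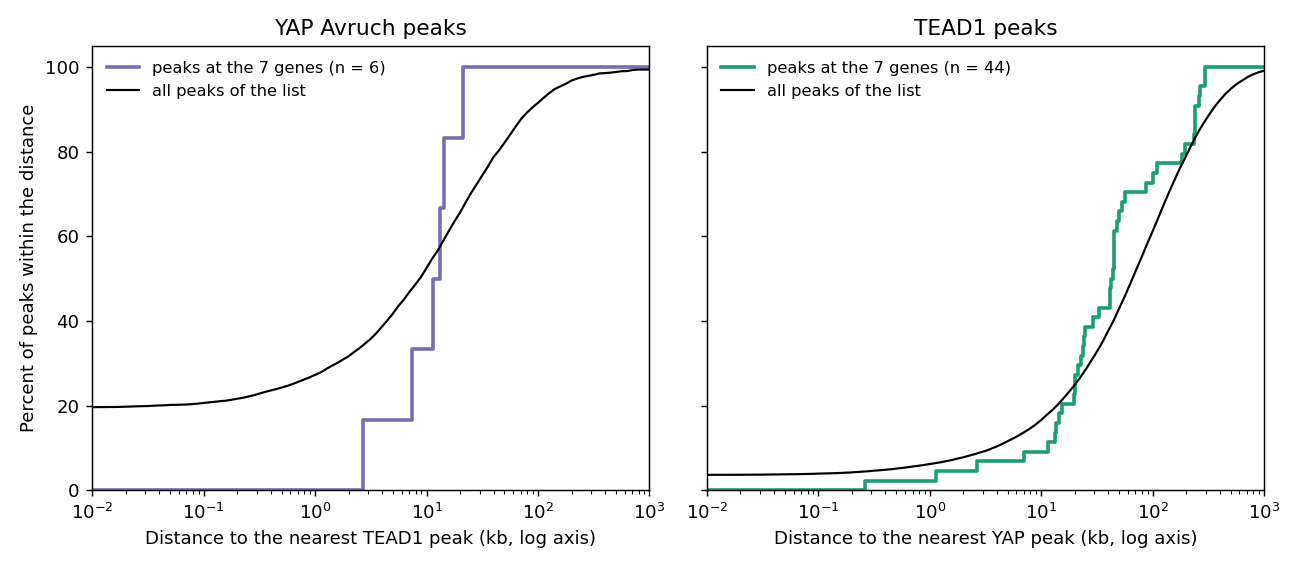
Percent of peaks (vertical axis) with a peak of the other protein within a given distance in kb (horizontal log axis), for Avruch peaks to TEAD1 on the left and TEAD1 peaks to YAP on the right, with peaks at the 7 genes as coloured steps and all peaks of the list in black. The Avruch steps begin at 2.67 kb and end at 21.4 kb, where the black curve starts near 19.4% at the left edge.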

How the data were processed

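ChIP-seq peaks of H69 cells were analysed from 3 deposited lists, 1 per antibody. Per the submitters' processing notes, reads were aligned with Bowtie2 to hg19. The peak caller is named only within the peak names, as MACS. Not given in the sources used here are its version, its settings, the control it was run against, the treatment of duplicate reads and the sequencing depth. Scores were deposited by the authors without a unit, and here they rank peaks inside 1 list only. Positions are printed counting from 1.

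A peak was assigned by its centre to a gene within 50 kb, and where 2 windows held it to the nearest gene, which never occurred. An overlap was at least 1 bp. Distances between peaks are from the last base of one to the first base of the next. Windows of equal length were tiled from the start of each placed chromosome to its last peak. Shares have exact 95% intervals (scipy 1.17.1, Python 3.11.15). Overlap, assignment and clustering were tested on simulated data. With 1 library per antibody no test between groups was possible. Named peaks were all YAP peaks, and per gene the TEAD1 peaks with the 2 highest scores and the one nearest the start, with others added after their values were seen. Members and lists were chosen with earlier results of these data known. Other genes of the pathway were planned and not analysed here, as no gene coordinates of hg19 other than the members' were used. Alternatives varied the distance, score minimum, joining and width of peaks, the overlap rule and the cluster gap.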

Additional observations from a re-analysis of the deposited data

How the results depend on the processing

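No paired analysis was possible because each antibody has 1 library. The numbers of peaks at the 7 genes were 1 (Santa Cruz), 6 (Avruch) and 44 (TEAD1). With only peaks at or above the median score of their list, they were 0, 1 and 27. With 20 kb or 100 kb in place of 50 kb, with neighbours up to 1 kb apart joined, and with peaks at least 1 kb wide left out, each of these 3 totals stayed within 1.5 times its value, with 4 to 8 Avruch peaks and 31 to 64 TEAD1 peaks. The count of overlaps between YAP and TEAD1 was 0 under those settings and with an overlap of at least 50% of both peaks. With centres at most 500 bp apart it was 1 for TEAD1, 1 for Santa Cruz and 0 for Avruch. Of the 44 TEAD1 peaks, 17 were clustered when neighbours could be 10 kb apart, 8 at 5 kb and 22 at 20 kb (38.6%, 18.2% and 50%, against 29.3%, 17.2% and 46.8% of all TEAD1 peaks). At ERBB3 it was 10 at 10 kb and 4 at 5 kb. Single genes moved more, as ERBB3 had 12 TEAD1 peaks within 50 kb, 7 within 20 kb and 22 within 100 kb, and HBEGF had 7 within 50 kb and 13 within 100 kb. The score median leaves 1 TEAD1 peak at ERBB2 and none at EREG. Read depth is not known, so absence from a list is not absence of binding.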
